A study of Mus musculus with 8 samples.

Results

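The LGI proteins and their receptors of the ADAM22 family were followed in ribosome-associated RNA from synaptosomes of the mouse neocortex. The members were defined by gene symbol: the secreted ligands Lgi1, Lgi2, Lgi3 and Lgi4 and the receptors Adam22, Adam23 and Adam11. They are 7 of the 56576 genes in the deposited table, and all 7 were measured well enough to be tested. In Erbb4 conditional mutants Lgi2 and Lgi3 met unadjusted thresholds for a decrease, with means at 56.1% and 45.4% of the control mean. For both genes the values of the genotypes overlapped, and the limma p adjusted over all genes was 0.58. Each of the 2 decreases fell short of the thresholds when certain single libraries were left out. The other members did not meet the thresholds for a change, although Adam23 came close.

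LGI proteins are secreted molecules built from leucine-rich repeats followed by a propeller of EPTP repeats, and the EPTP propeller binds the extracellular part of ADAM22, ADAM23 and ADAM11. These receptors belong to the ADAM family of membrane proteases but have no protease activity. At synapses LGI1 links ADAM22 on the postsynaptic side with ADAM23 on the presynaptic side, and ADAM22 binds PSD-95 inside the cell, a scaffold that holds AMPA receptors. LGI1 and ADAM22 are also found with Kv1 potassium channels on axons, and mutations of LGI1 or antibodies against it cause epilepsy and limbic encephalitis in people. LGI4 is best known in peripheral nerve, where glia secrete it to act on axonal ADAM22 during myelination.

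Synaptosomes, pinched-off nerve endings with the attached postsynaptic membrane, were prepared at postnatal day 15, and ribosomes were pulled down through a hemagglutinin tag on the ribosomal protein Rpl22. All mice carried the Rpl22HA allele on both chromosomes and the Lhx6-Cre transgene, which acts in the lineage of the medial ganglionic eminence and preoptic area (MGE/POA) and so tags ribosomes in PV+ and SST+ interneurons. The 4 controls were Lhx6-Cre;Erbb4+/+;Rpl22HA/HA and the 4 mutants were Lhx6-Cre;Erbb4F/F;Rpl22HA/HA, in which Cre removes the receptor tyrosine kinase ErbB4 from the same interneurons. The study asked which synaptic transcripts depend on ErbB4, and it lists its libraries as biological replicates. Values are normalized counts, that is, reads on each gene divided by 1 factor per library.

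Controls had between 51010687 and 80226984 reads on genes and mutants between 58967504 and 74609576. Erbb4 itself, the targeted gene, had 1640, 5377, 4306 and 3034 normalized counts in control replicates 1, 3, 4 and 5, and 1711, 1648, 1233 and 1048 in mutant replicates 2, 3, 4 and 5. The library labelled control replicate 1 thus lay below the mutant replicates numbered 2 and 3 for the deleted gene, so values without it are given beside several results. All 13 markers of MGE-derived interneurons were detected in every library, but so were all 10 markers of oligodendrocytes and all 12 of excitatory neurons, which Lhx6-Cre does not target. The study describes 2 sequencing batches, and no label says which library was in which, so within-batch values cannot be given.

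The coding sequences of the ligands differ enough for their reads to be kept apart. Aligned by codon, pairs of ligands share between 49.7% (Lgi2 with Lgi4) and 59.6% (Lgi1 with Lgi2) of their coding bases, and pairs of receptors between 55.6% (Adam22 with Adam23) and 57.5% (Adam23 with Adam11). No run of 50 coding bases is shared between any of the 7 members. Stretches most alike in only a pair of ligands were not sought. Shown is the gap-free stretch, within 1 coding exon, in which all ligands together are most alike. It spans 20 codons within 1 coding exon of each gene, and capitals mark the 30 of 60 bases that are not the same in all of Lgi1 (codons 286 to 305, chr19:38305637-38305696, plus strand), Lgi2 (codons 285 to 304, chr5:52538704-52538763, minus strand), Lgi3 (codons 283 to 302, chr14:70536234-70536293, plus strand) and Lgi4 (codons 271 to 290, chr7:31067360-31067419, plus strand), on GRCm38, the assembly also called mm10.
Lgi1: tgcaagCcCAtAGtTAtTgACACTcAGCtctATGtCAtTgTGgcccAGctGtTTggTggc
Lgi2: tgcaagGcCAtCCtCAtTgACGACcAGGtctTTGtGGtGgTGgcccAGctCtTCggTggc
Lgi3: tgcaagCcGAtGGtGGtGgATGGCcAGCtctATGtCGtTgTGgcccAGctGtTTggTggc
Lgi4: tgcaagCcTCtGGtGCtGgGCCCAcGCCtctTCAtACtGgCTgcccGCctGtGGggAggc

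The same search in the receptors gave a stretch with 21 of 60 bases that differ between them. It lies in 1 coding exon each of Adam22 (codons 563 to 582, chr5:8127362-8127421, minus strand), Adam23 (codons 619 to 638, chr1:63566613-63566672, plus strand) and Adam11 (codons 567 to 586, chr11:102776071-102776130, plus strand), with the differing bases in capitals.
Adam22: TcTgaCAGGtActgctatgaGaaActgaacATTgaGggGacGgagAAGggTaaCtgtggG
Adam23: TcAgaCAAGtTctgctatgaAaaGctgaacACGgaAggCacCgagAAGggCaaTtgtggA
Adam11: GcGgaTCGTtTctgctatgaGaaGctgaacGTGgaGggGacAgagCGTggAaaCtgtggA

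What separates these receptors from the proteases of their family can be read from the zinc-binding site of the catalytic domain. The extended zinc-binding motif of the metalloproteases was found in frame in the coding sequence of 9 of 9 other ADAM genes chosen for comparison and in 0 of the 3 LGI receptors. ADAM genes outside this chosen list were not searched, so the count does not describe the whole family. The site is shown for Adam17 and Adam10, the sheddases whose values are compared with the receptors further on, and for the aligned codons of Adam22, Adam23 and Adam11, with the 5 codons of the motif in capitals. Each stretch of 11 codons lies in 1 exon, except in Adam10, where an intron interrupts it. The positions are chr12:21336732-21336764 for Adam17 (minus strand), chr9:70754296-70761585 for Adam10 (plus strand, intron included), chr5:8143064-8143096 for Adam22 (minus strand), chr1:63547763-63547795 for Adam23 (plus strand) and chr11:102773613-102773645 for Adam11 (plus strand).
Adam17: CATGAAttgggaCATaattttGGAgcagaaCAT
Adam10: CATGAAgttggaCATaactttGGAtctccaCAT
Adam22: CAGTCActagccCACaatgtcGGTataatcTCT
Adam23: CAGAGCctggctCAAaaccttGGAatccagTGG
Adam11: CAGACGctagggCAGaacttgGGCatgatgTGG

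Reads of Lgi1 and Lgi4 are less certain than those of the other members. Of all runs of 50 bases in the Lgi1 coding sequence, 70.4% also occur in Gm3888, a processed pseudogene at chr15:92026359-92027598 that has no row of its own in the table, and 2.77% in the antisense gene Gm42723. Of those in the Lgi4 coding sequence, 16.9% lie in annotated transcripts of Fxyd3 on the opposite strand, and Fxyd3 had 9.92 to 42.3 normalized counts per library. Over the whole Lgi4 transcript, untranslated parts included, exons of Fxyd3 overlap 51.0% of the bases. How reads with several matches were treated and whether counting used the strand are not given in the sources used here, so part of the reads of these genes may be missing or misassigned. For Lgi2, Lgi3, Adam22, Adam23 and Adam11 the share of such runs was 0%.

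Genes were called changed where the unadjusted p was 0.05 or less and the fold 1.5 or more, the thresholds in the study's methods, in a limma fit across the 31171 genes with a mean of at least 10 normalized counts in at least 1 genotype. Of the 7 members, 2 were called lower in mutants and 0 higher, where 3.17% of all genes tested were called lower and 3.98% higher, 7.15% together. Without the fold threshold, 8.33% of all genes had an unadjusted p under 0.05, and 3 members did (Lgi2, Lgi3 and Adam23). Fold changes were below 0 on the log2 scale for 6 of the 7, against 46.6% of all genes tested. The median over the members was -0.50, beside 0.06 over all genes tested. In 0 members did the values of the 2 genotypes lie apart without overlap, which 4.93% of all genes did, 2.17% with the mutants below the controls. After Benjamini-Hochberg adjustment over all genes no member passed 0.05 in limma. The adjusted p was 0.58 for Lgi1, Lgi2, Lgi3 and Adam23, and only 0.0449% of all genes passed.

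**Figure D1:**
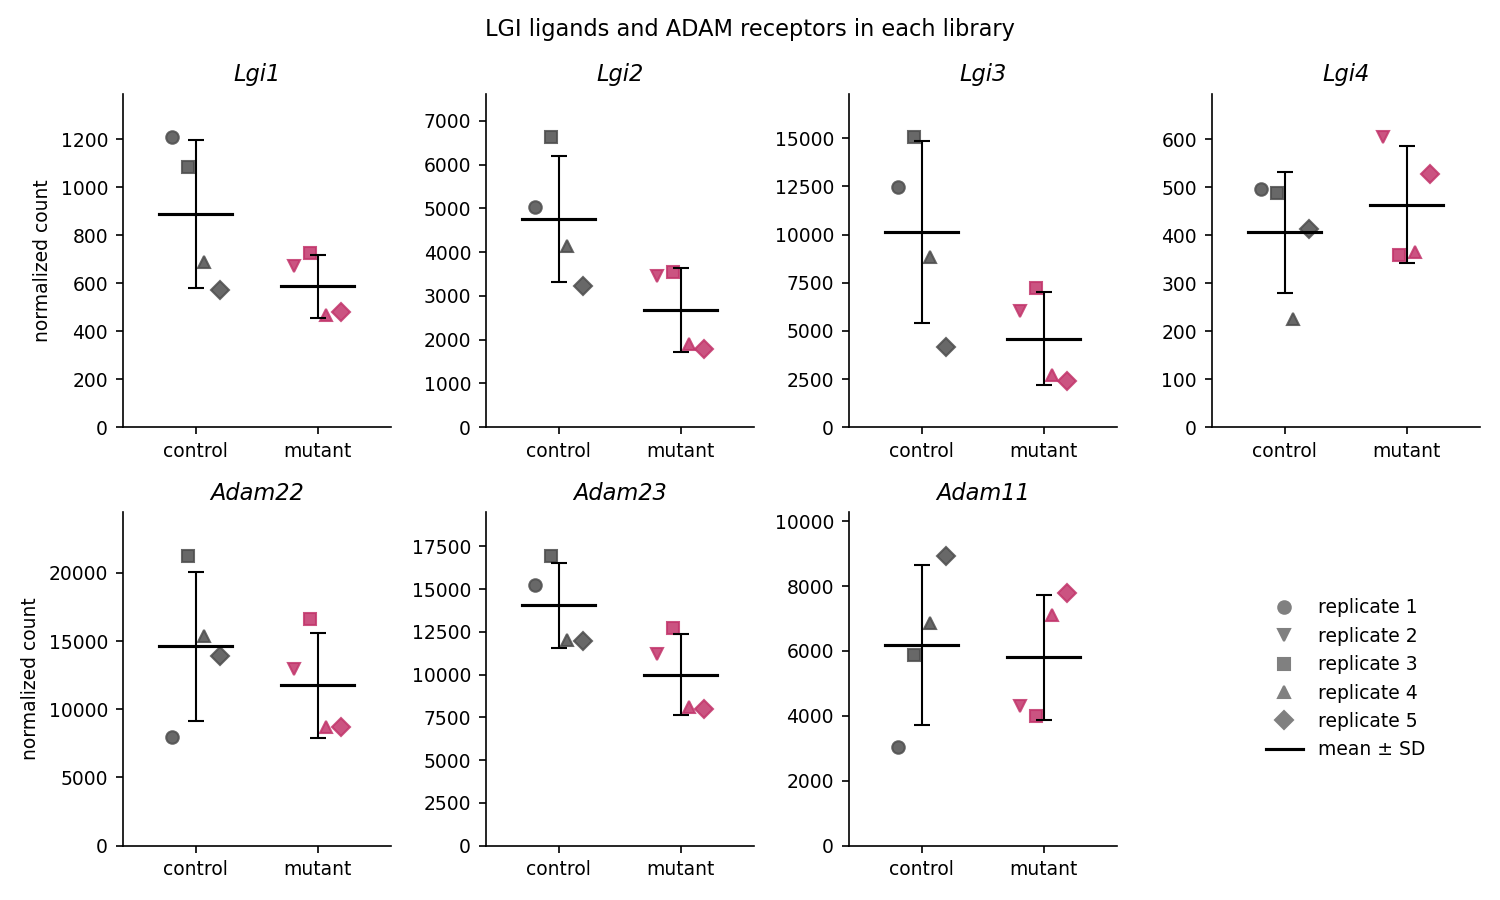
Normalized count of each LGI ligand (upper row) and ADAM receptor (lower row) in the 4 control and 4 Erbb4 mutant libraries, with marker shape giving the replicate number and bars the mean ± SD; each vertical axis starts at 0 and has its own scale. For Lgi2 and Lgi3, 3 of 4 controls lie above the highest mutant, whereas the values of Lgi4, Adam22 and Adam11 overlap broadly.

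Lgi3 (chromosome 14, 70530684 to 70538323) was the ligand with the largest difference, and its protein is found with Kv1 channels on axons. It had 12443, 15060, 8845 and 4159 normalized counts in control replicates 1, 3, 4 and 5 and 6045, 7244, 2689 and 2415 in mutant replicates 2, 3, 4 and 5. Of the controls, 3 lay above every mutant, and control replicate 5 lay between the mutants. Controls averaged 10127 ± 4724 (SD, n = 4) and mutants 4598 ± 2415 (SD, n = 4). Its log2 fold change was -1.15 (standard error 0.45, 95% confidence interval -2.15 to -0.15) with an unadjusted limma p of 0.028, so Lgi3 was called lower. An exact permutation test of the log2 values gave p = 0.11 (two-sided), where 4 libraries against 4 cannot give less than 0.029. The call did not hold without control replicate 1 (log2 fold change -1.0), without control replicate 3 (-0.91), without mutant replicate 4 (-0.95) or without mutant replicate 5 (-0.89).

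Lgi2 (chromosome 5, 52533519 to 52566306), whose mutation causes a remitting juvenile epilepsy in dogs, was called lower as well. Its normalized counts were 5029, 6632, 4145 and 3234 in control replicates 1, 3, 4 and 5, and 3451, 3548, 1899 and 1793 in mutant replicates 2, 3, 4 and 5. Control replicate 5 again lay among the mutants, and the other 3 controls lay above all of them. The mean fell from 4760 ± 1447 (SD, n = 4) to 2673 ± 956 (SD, n = 4), and the fitted log2 difference was -0.86 (standard error 0.30, 95% confidence interval -1.52 to -0.20) with an unadjusted limma p of 0.016. The exact permutation test gave p = 0.086 (two-sided). Without control replicate 3 the log2 fold change was -0.68 and without mutant replicate 5 it was -0.69, each with a limma p just past 0.05, and without control replicate 1 it was -0.81 and still called.

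Lgi1 (chromosome 19, 38264678 to 38308939), the epilepsy gene of the family, was measured at a lower level and did not meet the thresholds. It had 1209, 1085, 687 and 571 normalized counts in control replicates 1, 3, 4 and 5, and 670, 727, 469 and 480 in mutant replicates 2, 3, 4 and 5. Control replicates 1 and 3 lay above all mutants, and the other controls lay within the range of mutant values. On the log2 scale the fold change was -0.56 (standard error 0.30, 95% confidence interval -1.22 to 0.10), with an unadjusted limma p of 0.091 and an exact permutation p of 0.14 (two-sided). The interval leaves room for a decrease as large as that of Lgi3 and for no decrease. Without control replicate 5 it was -0.75 and met the thresholds, and without control replicate 1 it was -0.39.

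Lgi4 (chromosome 7, 31059341 to 31070935) was the ligand whose mean was not lower in mutants. Its values were 496, 489, 226 and 413 normalized counts in control replicates 1, 3, 4 and 5, and 604, 359, 364 and 527 in mutant replicates 2, 3, 4 and 5. The genotypes overlapped over most of their range, and the lowest value was that of control replicate 4. The log2 fold change was 0.22 (standard error 0.33, 95% confidence interval -0.52 to 0.95, exact permutation p = 0.57), and it was -0.04 without control replicate 4. The library with the fewest reads of Lgi4 had 226, so the spread between libraries is wider than counting error.

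Among the receptors, Adam23 (chromosome 1, 63445889 to 63596276), the presynaptic partner of LGI1, came nearest to a call. It had 15242, 16965, 11997 and 11991 normalized counts in control replicates 1, 3, 4 and 5, and 11192, 12734, 8096 and 7991 in mutant replicates 2, 3, 4 and 5. Of the mutants, 3 lay below the lowest control, and mutant replicate 3 lay between the controls. Controls averaged 14049 ± 2475 (SD, n = 4) and mutants 10003 ± 2349 (SD, n = 4). The log2 fold change of -0.50 (standard error 0.22, 95% confidence interval -0.99 to -0.01) had an unadjusted limma p of 0.045 but fell short of the fold threshold, at 0.706 of the control level. The exact permutation test gave p = 0.086 (two-sided). Without mutant replicate 3 Adam23 met both thresholds, at -0.63 on the log2 scale. The limma p rose past 0.05 without control replicate 1 (-0.46), control replicate 3 (-0.41), mutant replicate 4 (-0.41) or mutant replicate 5 (-0.40).

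Adam22 (chromosome 5, 8072347 to 8368160), the receptor that joins LGI1 to PSD-95, is among the postsynaptic genes that the study displayed after its own calls on these libraries, so a lower value of it here is no independent evidence. It had 7975, 21269, 15377 and 13919 normalized counts in control replicates 1, 3, 4 and 5, and 12944, 16646, 8686 and 8735 in mutant replicates 2, 3, 4 and 5. Control replicate 1 was the lowest of all 8 libraries and control replicate 3 the highest. Its log2 fold change was -0.29 (standard error 0.32, 95% confidence interval -0.99 to 0.42, unadjusted limma p = 0.39, exact permutation p = 0.54), and Adam22 was not called. Without control replicate 1, the library with the low Erbb4 value, it was -0.55 and still short of the thresholds. With the replicate number as a block, a fit in which control replicate 1 and mutant replicate 2 have no counterpart, Adam22 was at -0.62 and was called lower, and with library weights it was also at -0.62 and called.

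Adam11 (chromosome 11, 102761434 to 102780260) is the family's receptor best known from the cerebellum. It had 3037, 5867, 6869 and 8940 normalized counts in control replicates 1, 3, 4 and 5, and 4305, 3995, 7118 and 7784 in mutant replicates 2, 3, 4 and 5. The values of each genotype spread over most of those of the other. The log2 fold change was -0.05 (standard error 0.34, 95% confidence interval -0.81 to 0.71, exact permutation p = 0.97), and it turned positive without control replicate 4, control replicate 5, mutant replicate 2 or mutant replicate 3. Without control replicate 1, which has the lowest Adam11 value, it was -0.36 and not called.

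**Figure D2:**
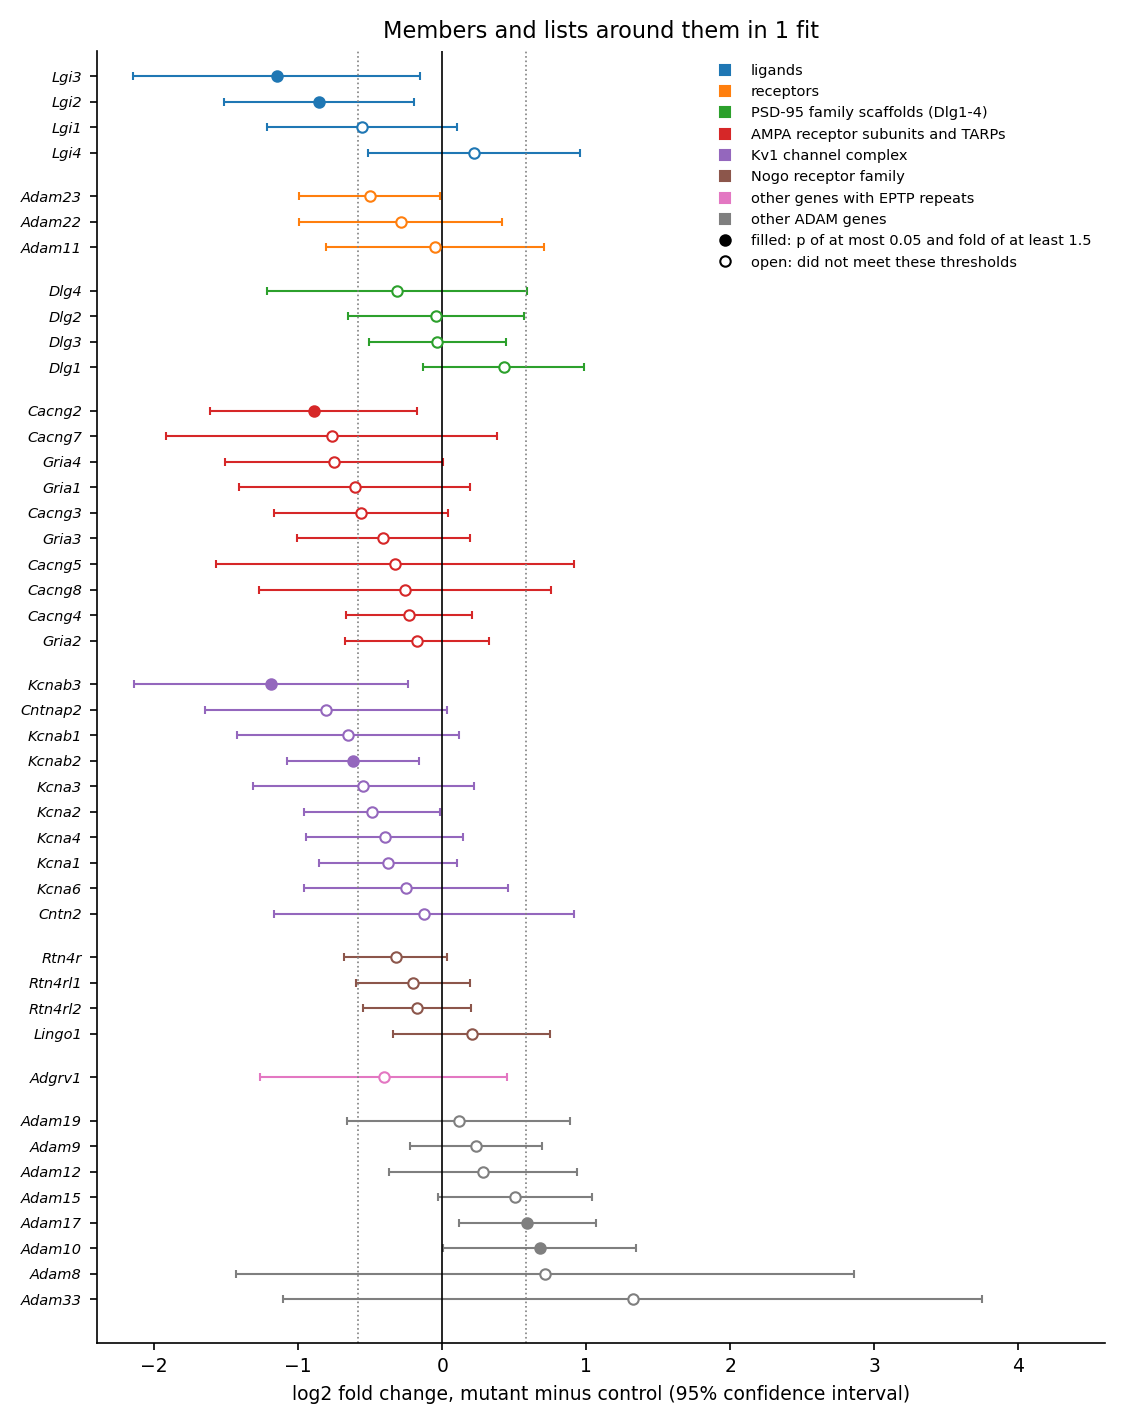
Log2 fold change of mutants against controls for the 7 members and for the tested genes of each list around them, with 95% confidence intervals from the limma fit; filled symbols met the thresholds and the dotted lines mark a fold change of 1.5. The intervals of Lgi3 and Lgi2 lie below 0, all 10 AMPA receptor and all 10 Kv1 genes have estimates below 0, and the 8 other ADAM genes have estimates above 0.

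Within each genotype the values of most members also differed by replicate number. For 4 members (Lgi1, Lgi2, Lgi3 and Adam23), the libraries numbered 4 and 5 lay below the lower-numbered ones in both genotypes, which held for 10.4% of all genes tested. Adam11 showed the opposite order in both genotypes, as 12.3% of all genes did. This division by replicate number was made after the values were seen. It holds equally many libraries of each genotype on both sides, so as a covariate it leaves the fold changes as they are. Lgi2 and Lgi3 were the members called lower with it, which is no independent evidence. Among the lower-numbered libraries the mutant mean of Lgi3 was 48.3% of the control mean, and among those numbered 4 and 5 it was 39.3%. The same values were 60.0% and 50.0% for Lgi2, 60.9% and 75.4% for Lgi1, and 74.3% and 67.1% for Adam23. For these 4 members both mutants lay below both controls on each side of the division, which 8.28% of all genes did. Adam22 had a mutant mean at 101% of the control mean among the lower-numbered libraries, where control replicate 1 is, and 59.5% among those numbered 4 and 5.

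**Figure D3:**
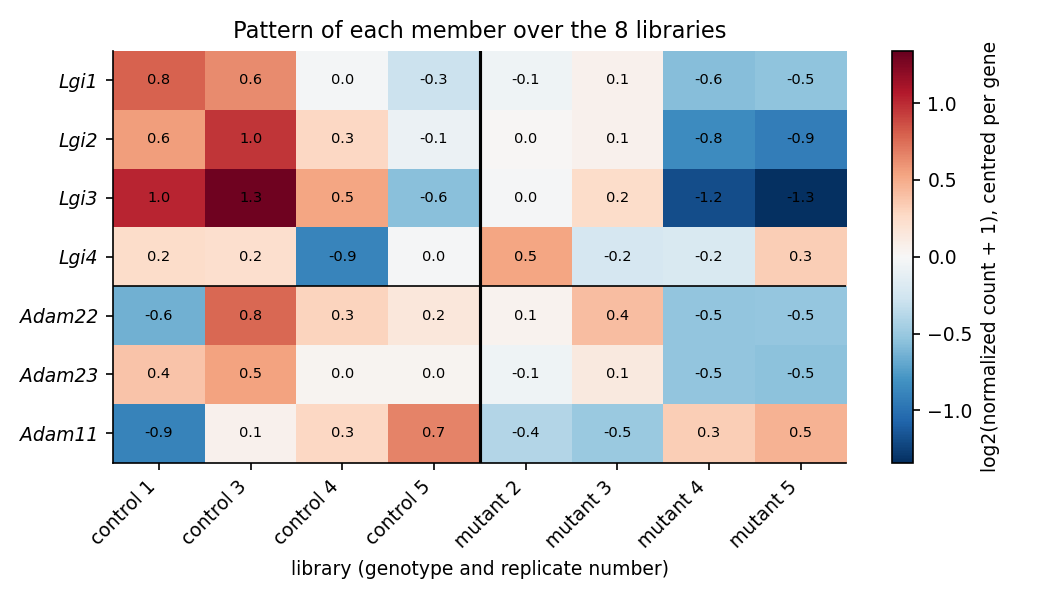
Log2(normalized count + 1) of each member in each of the 8 libraries after subtracting the member's own mean, in log2 units, with red above and blue below that mean. Lgi1, Lgi2, Lgi3 and Adam23 go from high values in control replicates 1 and 3 to low values in mutant replicates 4 and 5, and Adam11 is lowest in control replicate 1.

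Levels of different genes were compared as normalized counts per kilobase of the longest annotated coding sequence. Lgi3 was the most abundant ligand in controls, with 6160 ± 2874 (SD, n = 4) normalized counts per kilobase, followed by Lgi2 with 2885 ± 877. Lgi3 exceeded Lgi2 within every library, although the ranges over libraries overlapped. Lgi1 had 531 ± 184 and Lgi4 252 ± 78.0 normalized counts per kilobase in controls, and in mutants these neighbours overlapped, with 351 ± 78.7 and 288 ± 75.8. Lgi3 made up 60.8% ± 7.4 (SD, n = 4) of the summed ligand level in controls and 53.3% ± 6.6 in mutants. Lgi2 made up 30.7% ± 5.4 in controls and 32.7% ± 2.3 in mutants. The levels of Lgi1 and Lgi4, and with them these shares, are less certain. Of the runs of 50 bases in their coding sequences, 73.1% and 16.9% also occur in other genes, against 0% for Lgi2 and Lgi3. How such reads were counted is not given, so the place of Lgi1 among the ligands may be misstated.

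The receptors were closer to each other in level. In controls Adam23 had 5649 ± 995 (SD, n = 4) normalized counts per kilobase and Adam22 5263 ± 1963, which do not differ beyond their spread, and Adam11 had 2647 ± 1051. Their shares of the summed receptor level in controls were 42.8% ± 11.3 for Adam23, 37.8% ± 7.5 for Adam22 and 19.4% ± 7.1 for Adam11 (SD, n = 4). With the length of the longest transcript in place of the coding length, the share of Lgi3 among the ligands was 75.3% in controls, and Lgi1 and Lgi4 were level at 2.90% and 2.80%. The authors counted reads on constitutive regions, whose lengths are not used here, so these levels are approximate.

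**Figure D4:**
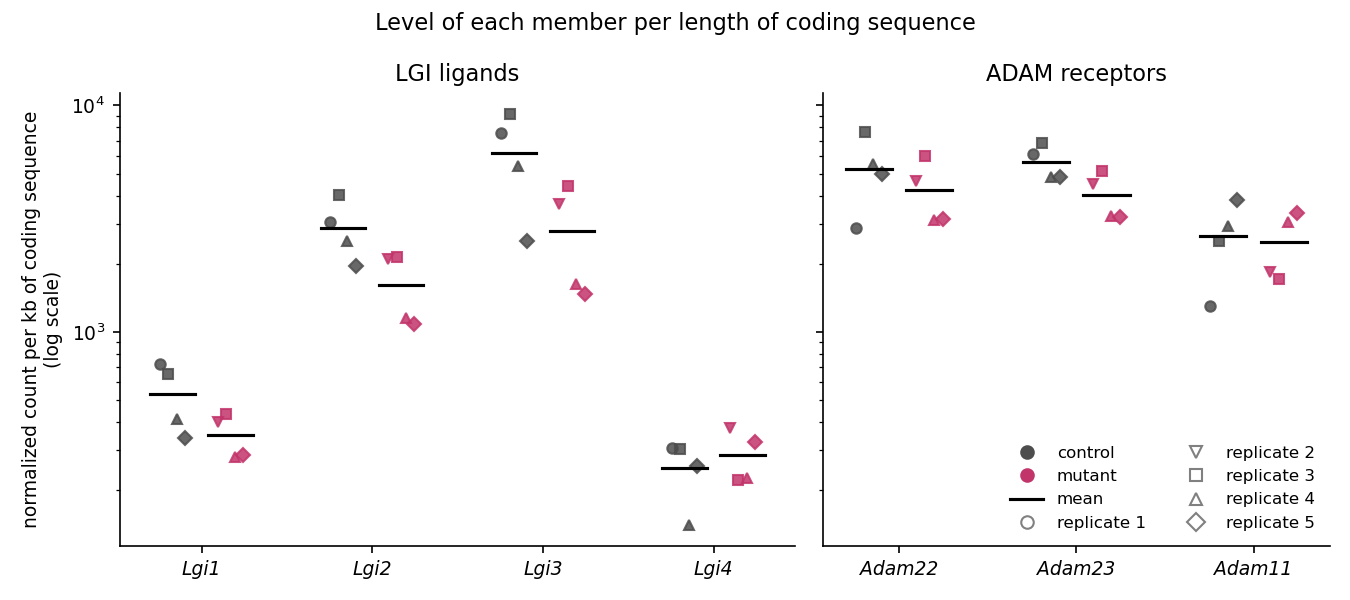
Normalized count per kilobase of longest coding sequence for each member in each library (logarithmic axis), with lines at the mean of each genotype. Lgi3 and Lgi2 lie above Lgi1 and Lgi4 in every library, and Adam22 and Adam23 lie mostly above Adam11.

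The ratio of members within a library does not depend on the library's normalization, and it was compared for all 21 pairs. In 0 of 21 pairs did the ratios of mutants and controls lie apart. The largest shift was that of Lgi3 to Lgi4, whose mean log2 ratio of normalized counts was 4.55 ± 0.86 (SD, n = 4) in controls and 3.18 ± 0.90 in mutants. The exact permutation p was 0.057 for Lgi1, Lgi2 and Lgi3 against Lgi4 and for Lgi2 against Adam22 (two-sided, adjusted p = 0.30 over the 21 pairs), and higher for the others. The log2 ratio of Lgi1 to Adam23 was -4.04 ± 0.31 (SD, n = 4) in controls and -4.09 ± 0.04 in mutants.

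The genes with the most similar course over the 8 libraries were sought among 13762 genes with a symbol and a mean of at least 100 normalized counts, by the root mean square difference of log2 values centred on each gene's own mean. For Lgi1 they were Csdc2 (0.04) and Aplp1 (0.04), and for Lgi2 Zfp385a (0.07) and Sez6l2 (0.08). For Lgi3 the nearest was Rnf128 (0.10). Adam23 was followed most closely by Mapt (0.07), which encodes tau, and Smpd1 (0.07), and Adam22 by Robo1 (0.11) and Grin3a (0.12). For Lgi4 the nearest were Cfap97 and Gm3219 (0.17 each), and for Adam11 Plch2 (0.14) and Ndor1 (0.17). No member was among the 2 nearest genes of another. The member nearest to Lgi1 was Adam23, in place 463 of the ranking with a difference of 0.19, and the member nearest to Lgi3 was Lgi2, in place 402 with 0.34.

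Genes around the LGI proteins were taken from lists of 39 genes, of which 37 were tested, and these include 9 other ADAM genes and 2 other genes with EPTP repeats that are not partners of LGI proteins. Of the genes tested 3 were called lower, all of them AMPA receptor or Kv1 channel genes, and 2 higher, both of them other ADAM genes, where 3.17% of all genes were called lower and 3.98% higher. The PSD-95 family, Dlg1 to Dlg4, which anchors ADAM22, had 0 of 4 called and a median log2 fold change of -0.038, which ran from -0.28 to 0.05 over the alternatives. Without control replicate 1 this median was -0.24. Dlg4, which encodes PSD-95, averaged 2053 ± 872 normalized counts in the controls (SD, n = 4) and 1763 ± 1025 in mutants, a difference of -0.31 on the log2 scale (standard error 0.41, exact permutation p = 0.54).

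All 10 AMPA receptor subunits and their auxiliary TARPs had log2 fold changes below 0, where 46.6% of all genes tested did. Their median was -0.49 (-0.69 to -0.31 over all alternatives), and 1 was called lower, as 3.17% of all genes tested were. This was Cacng2, the gene of stargazin, which averaged 4242 ± 2070 normalized counts in the controls (SD, n = 4) and 2108 ± 424 in the mutants (log2 fold change -0.89, standard error 0.33, exact permutation p = 0.086). Gria1 and Gria4, which encode the subunits GluA1 and GluA4, had -0.61 (exact permutation p = 0.23) and -0.75 (exact permutation p = 0.11) and were not called. Cacng2, Gria1 and Gria4 were also displayed by the study after its own calls on these libraries.

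The 10 genes of the Kv1 channel complex also had log2 fold changes below 0, where 46.6% of all genes tested did. Their median was -0.52 (-0.66 to -0.35 over all alternatives), and 2 were called lower, as 3.17% of all genes tested were. Both encode auxiliary beta subunits. Kcnab2 averaged 2299 ± 395 normalized counts in the controls (SD, n = 4) and 1496 ± 247 in the mutants with no overlap (log2 fold change -0.62, exact permutation p = 0.029, the smallest possible), and Kcnab3 had 816 ± 230 and 396 ± 219 (log2 fold change -1.19, exact permutation p = 0.086). Kcnab2 and Kcna3 were among the genes the study displayed. Of the pore-forming subunits, Kcna2 had -0.49 and no overlap between genotypes but fell short of the fold threshold, and Kcna1 had -0.38 and was not called. Genotypes lay apart without overlap in 4.93% of all genes tested.

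Nogo receptors, proposed to bind LGI1 as well, had 0 of 4 genes called and a median of -0.19. Of the other genes with EPTP repeats, Adgrv1 had -0.41 and was not called, and Tspear was too low to be tested.

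The listed other ADAM genes, which do carry the protease motif, had estimates above 0, and the LGI receptors had estimates below 0. Among the receptors, Adam11 (-0.05) and Adam22 (-0.29) had 95% confidence intervals that include 0. So did all the other ADAM genes tested except Adam17 and Adam10. The largest estimate, that of the weakly measured Adam33 (1.32), had an interval from -1.10 to 3.75. All 8 other ADAM genes tested had log2 fold changes above 0, where 46.6% of all genes tested were below 0. Their median was 0.55 (0.31 to 0.67 over all alternatives), and 2 were called higher. Adam17, the sheddase of tumour necrosis factor, averaged 3779 ± 850 normalized counts in the controls (SD, n = 4) and 5627 ± 820 in the mutants (log2 fold change 0.59, standard error 0.22, exact permutation p = 0.057). Adam10, a sheddase of Notch and of many synaptic adhesion proteins, had 4525 ± 1815 and 6687 ± 266 with no overlap (log2 fold change 0.68, standard error 0.30, exact permutation p = 0.029, the smallest possible). Beside these, the LGI receptors had a median of -0.29. The difference between the lists was not tested.

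Markers of the tagged cells were lower in mutants together with Lgi2 and Lgi3. For comparison, 46.6% of all genes tested had log2 fold changes below 0 and 3.17% were called lower. Of 13 markers of MGE-derived interneurons, all had log2 fold changes below 0 (median -0.80), and Kcnc1 (-1.02), Gad2 (-0.93) and Gad1 (-1.04) were called lower. Their summed level ran from 55740 to 184365 normalized counts in controls and from 30583 to 88186 in mutants. Lhx6 itself had -0.69 and Rpl22, whose protein carries the tag, had -0.47, and neither was called. Of 10 PV+ markers 5 were called lower (median -1.23), among them Pthlh (-1.52), Pvalb (-2.08), Cplx1 (-1.19) and Syt2 (-1.10). Of 10 SST+ markers 1 was called lower, Chodl (-1.32, list median -0.83). In these bulk libraries fewer interneurons of a type and less RNA per cell cannot be told apart, and neither can be told apart from a change of Lgi2 or Lgi3 within these cells. The part of the marker levels in the values of the members was not tested.

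Some markers of other cells were called as well, where 3.17% of all genes tested were called lower and 3.98% higher. Of 10 oligodendrocyte markers 3 were called lower, Mag (-0.66), Mog (-0.73) and Opalin (-0.64), with all 10 below 0, a median of -0.62 and a summed level from 226229 to 663150 normalized counts in controls and from 196800 to 282524 in mutants. Of 12 excitatory markers 1 was called lower, Neurod6 (-0.70), and 1 higher, with a median of -0.15. Astrocyte, microglia and oligodendrocyte precursor markers had 0 called, with medians of -0.11, -0.44 and -0.31. Of 10 endothelial and mural markers 3 were called higher, Tek (0.85), Flt1 (0.69) and Pdgfrb (1.02), with a median of 0.37. The markers of each list were above 0 in every library, and what part these cells have in the values of the LGI and ADAM genes was not tested.

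**Figure D5:**
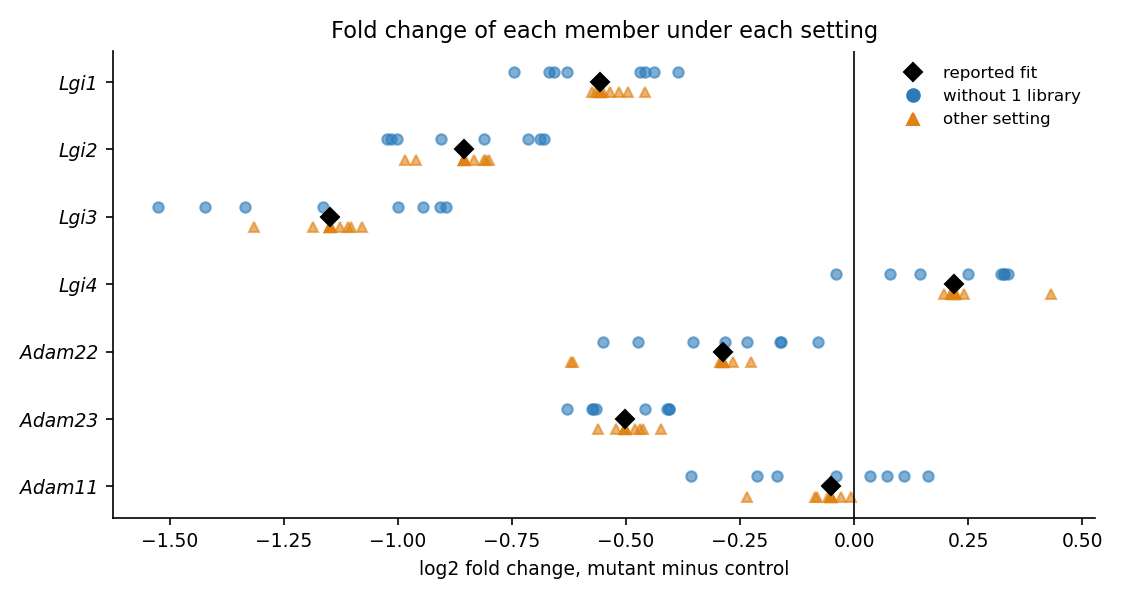
Log2 fold change of each member in the fit reported here (black diamonds), in the 8 fits that each leave out 1 library (blue circles) and under the other settings (orange triangles). Lgi1, Lgi2, Lgi3, Adam22 and Adam23 stay below 0 in all of them, while Lgi4 and Adam11 cross 0 when single libraries are left out. Several of the other settings, such as gene filters and call thresholds, cannot change a fold change, and their triangles coincide with the reported value.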

How the data were processed

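Ribosome-associated RNA of 4 control and 4 Erbb4 mutant libraries was analysed. The deposited values are a signal, normalized counts: the authors mapped paired reads to mm10 (STAR 2.4.0), took the reads that fall on constitutive regions of Fast DB genes and scaled them by DESeq2 size factors. All 8 columns matched a sample by name. Dividing each column by its smallest value above 0 gave whole reads for 100% of the values (within 0.1), with 51010687 to 80226984 reads per library, so spread between libraries limits precision more than depth.

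Log2(normalized count + 1) was fitted with limma 3.58.1 (eBayes with trend, R 4.3.3) without covariate, with Benjamini-Hochberg adjustment over all genes tested. This scale understates changes of low genes. Two-sided exact permutation tests on the log2 values used scipy 1.17.1; those of 8 partner genes were added after the data were seen. Alternatives included edgeR 4.0.16 and DESeq2 1.42.0 on recovered reads, and the fit was tested on simulated data. The study's methods describe its replicates as samples from different brains of different litters, and no label ties a library to an animal. Sequences and lengths came from GENCODE M21 on GRCm38, aligned with MAFFT 7.526.

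The members and lists were chosen with earlier results of these data known. Named were the members, Erbb4, Rpl22, Lhx6, called genes of each list (at most 4), 8 partner genes whatever their values, and the 2 genes nearest to each member. Genes discussed only as shared sequence were added later. Some genes that this rule names are not reported here.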

Additional observations from a re-analysis of the deposited data

How the results depend on the processing

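The reported fit called 2 members and 988 of all genes lower, and 0 members and 1241 genes higher. Over 24 alternatives per result, Lgi2, Lgi3, Lgi1, Adam22 and Adam23 stayed below 0 (ranges -1.02 to -0.68, -1.53 to -0.89, -0.75 to -0.39, -0.62 to -0.08 and -0.63 to -0.40), and 0 members were called higher in any. Some alternatives cannot change a member's fold change and so do not test its sign. These are the gene filters, limma without trend, the stricter call thresholds, and the covariates for the first residual component and the division by replicate number. The number of members called lower was 1 with limma without trend (Lgi2), 0 at an adjusted p of at most 0.05 and 0 at a p of at most 0.01. Genes called lower and higher numbered 1633 and 1997 with library weights, 14 and 0 at an adjusted p of at most 0.05, and 142 and 212 at a p of at most 0.01, and those called lower numbered 1573 with DESeq2. Calls that were lower made up 44.3% of all calls in the reported fit, 55.5% with DESeq2 and 52.9% with edgeR. The study, with DESeq2 and its own filter for expressed genes, reports that a clear majority of its differentially expressed genes were downregulated. The reported fit did not reproduce that majority, and the reason was not tested. Leaving out 1 library at a time gave 0 to 3 members called lower, 515 to 1977 genes lower and 619 to 1792 higher. Without 1 library Lgi4 ran from -0.040 to 0.34 and Adam11 from -0.36 to 0.16. Lgi4 turned to -0.040 without control replicate 4, and Adam11 to 0.04 without control replicate 4, 0.16 without control replicate 5, 0.07 without mutant replicate 2 and 0.11 without mutant replicate 3. Library weights brought Adam22 to -0.62, which met the call thresholds, and the unadjusted p of Adam23 was above 0.05 with quantile normalization, TMM, edgeR and limma without trend. The cause of these changes was not tested.

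Both genotypes have replicates numbered 3, 4 and 5, and whether the numbers pair the libraries depends on the genes used. The deviations of same-numbered libraries correlated at 0.10, 0.098 and 0.082 over all genes tested, where control replicate 5 correlated slightly better with mutant replicate 4 (0.085) than with its own number. Over the 19137 genes with a mean of at least 100 they correlated at 0.282, 0.237 and 0.259 and each of these libraries correlated best with its own number, although control replicate 3 had 0.276 with mutant replicate 2 and control replicate 4 had 0.227 with mutant replicate 5. No label says what a number marks, and the reported fit has no block. In the fit with a replicate block, 3 members (Lgi2, Lgi3 and Adam22, the last at -0.62) and 1719 genes were called lower, and 0 genes passed an adjusted p of 0.05 in limma, while 2351 lower and 2226 higher genes had an unadjusted p under 0.05.

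Chosen after seeing the data, a covariate holding the first residual component gave 2431 genes called higher and the same number of members lower, 2. The division by replicate number as a covariate gave 1821 genes called lower, with an adjusted limma p of 0.040 for Lgi2, 0.042 for Lgi3, 0.061 for Adam23 and 0.15 for Lgi1. In that fit 375 lower and 169 higher genes had an adjusted limma p under 0.05, against 14 and 0 in the reported fit. This division was also chosen after the values of these members were seen, so these p-values are no independent evidence.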
